A study of Mus musculus with 12 samples.

Results

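Genes of the interleukin 12 family and of the interleukin 15 and interleukin 10 systems were followed in RAW264.7 cells, a mouse macrophage line, under compression. They were chosen by name and are Il23a, Il12a, Il12b, Ebi3, Il27, Il15, Il15ra, Il10ra, Il10rb and Il10, 10 of the 56941 gene IDs in the count table. The rule used no measured value, but the set was drawn up with earlier results of these data known.

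RNA from 12 samples of the line, grown on porous inserts, was sequenced. In 6 control samples an agarose cushion alone lay on the cells for 24 h, and in 6 compressed samples a printed weight on the cushion added 0.14 kPa of compressive stress for the same time. All 12 were of 1 cell line grown in the same serum-supplemented medium, with no cytokine or bacterial product named in the labels. Whether the 6 samples of each condition were grown as independent cultures is stated nowhere in the sources used here. The p-values therefore rest on the scatter among these libraries, and that scatter may be technical.

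Cytokines of the interleukin 12 family are pairs of a helical chain and a receptor-like partner chain. Il23a encodes the helical chain p19 of interleukin 23 and Il12a the helical chain p35 of interleukin 12, and both pair with p40, the product of Il12b. Il27 encodes the helical chain p28 of interleukin 27, which pairs with EBI3, and EBI3 with p35 makes interleukin 35. Macrophages and dendritic cells make interleukins 12, 23 and 27 after they sense microbes, and these cytokines steer T cells. Interleukin 15 is not of this family: it sustains NK cells and memory T cells and is presented on the cell surface by its receptor chain, the product of Il15ra. Interleukin 10 restrains macrophages through a receptor of 2 chains, the ligand-binding one encoded by Il10ra and a shared one by Il10rb.

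RefSeq start-site windows on GRCm38.p6, from 250 bases before to 50 bases after the start, were at hand for 4 of the 10 genes, 6 windows in all. The 3 shown are that of Ebi3, the partner chain whose level rose, that of Il12b, the partner chain with almost no reads, and the one of Il15ra that held a searched motif. They lie on the plus strand at chr17:55952373-55952672, chr11:44399813-44400112 and chr2:11705462-11705761. Capitals mark a match to 1 of 5 motifs searched on both strands: the kappa B consensus, the AP-1 site TGANTCA, the cAMP response element TGACGTCA, the interferon response element (GAAA, any 2 bases, GAAA) and the STAT site TTCNNNGAA. No match overlapped another.
Ebi3: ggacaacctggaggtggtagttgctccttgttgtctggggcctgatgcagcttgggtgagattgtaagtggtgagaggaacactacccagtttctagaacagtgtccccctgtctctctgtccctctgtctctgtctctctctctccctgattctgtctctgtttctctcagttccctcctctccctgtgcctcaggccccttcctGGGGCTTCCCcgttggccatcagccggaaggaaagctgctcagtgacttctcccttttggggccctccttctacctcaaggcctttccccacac
Il12b: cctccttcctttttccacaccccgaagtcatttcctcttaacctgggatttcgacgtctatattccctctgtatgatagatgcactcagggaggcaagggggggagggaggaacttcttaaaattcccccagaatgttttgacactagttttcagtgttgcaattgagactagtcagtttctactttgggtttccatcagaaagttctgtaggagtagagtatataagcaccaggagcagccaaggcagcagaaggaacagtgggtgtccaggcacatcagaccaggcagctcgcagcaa
Il15ra: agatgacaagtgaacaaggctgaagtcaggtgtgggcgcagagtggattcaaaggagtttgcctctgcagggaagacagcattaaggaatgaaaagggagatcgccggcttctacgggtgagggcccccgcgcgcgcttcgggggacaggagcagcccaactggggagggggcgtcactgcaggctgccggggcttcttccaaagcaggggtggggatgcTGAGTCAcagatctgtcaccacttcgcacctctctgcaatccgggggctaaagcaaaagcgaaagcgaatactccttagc
The Ebi3 window held a kappa B match, GGGGCTTCCC, at -44 from the start. This motif was in 4.51% of the 32851 windows searched, which did not cover all genes or all chromosomes. The Il15ra window held an AP-1 match, TGAGTCA, at -30, a motif found in 7.81% of windows. The Il12b window, both windows of Il12a and the other window of Il15ra held none of the 5, which says only that these letters are not in these windows. The shares of all windows for the remaining motifs were 1.79% for the cAMP response element, 3.44% for the interferon response element and 8.3% for the STAT site.

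Libraries held 37948795 to 40463545 counts in the controls and 33460807 to 39103987 in the compressed group. Compressed replicate 6 stood apart from the other compressed libraries. On the second principal component it lay at -26.7, and compressed replicates 1 to 5 lay between 3.27 and 7.19. Of all tested genes, 45.4% differed in replicate 6 by more than 0.5 log2 units from the mean of replicates 1 to 5, so the test of each gene of the set, and each list count that it changed, is given with and without it. CPM are read counts per 1000000, with library sizes scaled by TMM. Macrophage markers summed to 6424 to 6875 CPM in the controls and 7918 to 9787 in the compressed group, but single markers differed widely. Lyz2 was the highest, at 2678 ± 123 and 4204 ± 616 CPM, and Mertk the lowest, at 0.308 ± 0.148 and 0.934 ± 0.239 (SD, n = 6). Of the 10 markers on that list, 5 rose, 3 fell and 2 did not pass the test, and without replicate 6 there were 6 higher and 4 lower. Replicate 6 held the highest sum. Adgre1, a macrophage surface receptor, had 53.8 ± 3.94 CPM in the controls and 81.3 ± 14.8 in the compressed group (SD, n = 6), where replicate 6 at 54.5 lay within the control range of 49.0 to 60.4 and the other 5 above it. Csf1r, the receptor for macrophage growth factor, had 1616 ± 38.0 and 1385 ± 195 CPM, with replicate 6 at 997 and the other compressed libraries at 1415 to 1541. Of 8 markers of T and NK cells 5 were at 0 in all 12 libraries, Cd3e among them. Of 6 B cell markers 3 were at 0 throughout. Summed levels of T and NK cell markers were 7.52 to 8.97 CPM in the controls and 7.94 to 10.2 in the compressed group, nearly all of it Lck, which was not called. Sums of B cell markers stayed at or under 0.155 CPM. Of 6 dendritic cell markers only Zbtb46 passed the filter, and it was called higher (log2 fold change 0.33, adjusted p = 0.0189 by edgeR). The sum of that list was 1.70 to 2.18 CPM in the controls and 2.26 to 3.01 in the compressed group. Of 8 stromal and epithelial markers 2 passed the filter, Pdgfrb and Pecam1, and both were called higher. Pdgfrb had 0.222 ± 0.0188 CPM in the controls and 0.501 ± 0.178 in the compressed group (SD, n = 6). Its control mean was under the filter's minimum of 0.263 CPM. It thus passed through its compressed libraries, and the direction of its call was partly set by the filter. Pecam1 had 0.320 ± 0.118 and 0.549 ± 0.111 CPM. Sums of the list were 0.617 to 0.945 CPM in the controls and 0.876 to 1.56 in the compressed group. The part of either list in the results was not tested.

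Compressed macrophages carried more RNA for 5 of the 10 genes, and the largest change was in Il23a, the interleukin 23 chain. Ebi3 and Il27, which together encode interleukin 27, also rose, as did Il15 and the interleukin 10 receptor gene Il10ra. Il15ra did not pass the test. The remaining 4 genes, Il12a, Il12b, Il10rb and Il10, had 0 to 11 reads in any library and were left out of the test by the filter on low counts. For the 6 tested genes the filter decided nothing, since each exceeded its minimum of 0.263 CPM in every control library. By edgeR's quasi-likelihood test with Benjamini-Hochberg adjustment over 15001 genes, 5 of 6 were called higher, where 24.5% of all tested genes were. By edgeR 0 were called lower, where 21.9% of tested genes were, 0 were lower at an unadjusted p under 0.05, and DESeq2 also called 0 lower and 5 higher. In the same 5 genes the compressed libraries did not overlap the controls and lay above them, which held for 16.5% of tested genes. The median log2 fold change of the 6 was 1.23, and that of all tested genes 0.02. In bulk RNA, more RNA per cell and more cells of a kind that makes it cannot be told apart.

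**Figure D1:**
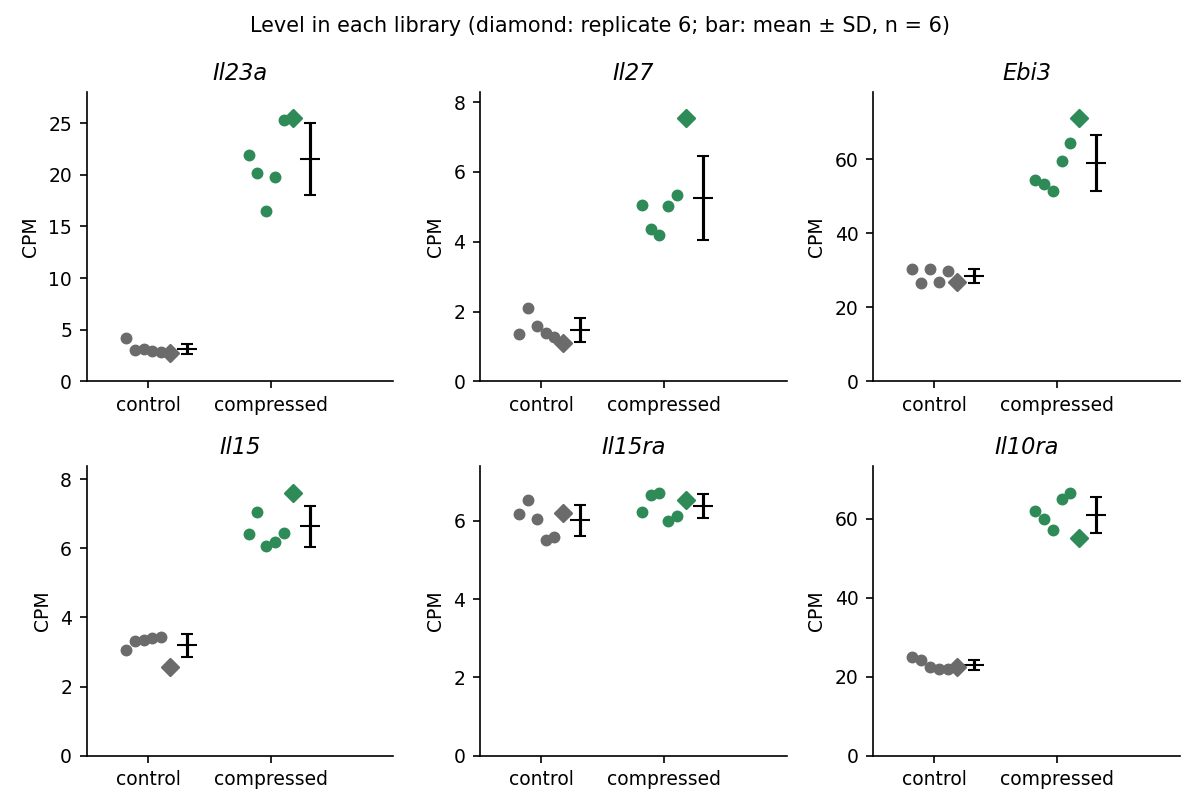
CPM of the 6 tested genes in each of 6 control (grey) and 6 compressed (green) libraries, with replicate 6 of each group as a diamond and the mean ± SD as a bar. In every panel but that of Il15ra all compressed libraries lie above all controls.

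Il23a had 2.76 CPM in the lowest control, a median of 2.99 and 4.17 in the highest. In the compressed libraries the lowest was 16.5, the median 21.04 and the highest 25.5. The lowest compressed library, replicate 3, was well above the highest control, replicate 1, and the other 5 controls lay within 2.76 to 3.09 CPM. The means were 3.13 ± 0.525 and 21.5 ± 3.48 CPM (SD, n = 6 each), from 750 and 4533 reads. The log2 fold change was 2.78 (SE 0.13, adjusted p = 1.98e-09 by edgeR), or 6.86-fold with a 95% interval of 5.65 to 8.32. Of the 15001 tested genes, 87 had a larger positive log2 fold change. Without compressed replicate 6, the highest of its group at 25.5 CPM, the log2 fold change was 2.72 (adjusted p = 3.33e-14 by edgeR).

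Il27, the p28 chain, had a control range of 1.11 to 2.09 CPM with a median of 1.37. Its compressed libraries ranged from 4.19 to 7.54 CPM with a median of 5.04. All compressed libraries exceeded all controls, and replicate 6 was the highest, apart from the other 5 at 4.19 to 5.33. The log2 fold change was 1.84 (SE 0.17, adjusted p = 1.22e-06 by edgeR), or 3.57-fold (95% interval 2.76 to 4.63), and 1.70 without replicate 6 (adjusted p = 3.41e-10). Exons of Il27 share 103 of 1021 bases with Apobr on the other strand, which rose from 129 ± 4.63 to 194 ± 18.3 CPM (SD, n = 6). The libraries were directional, but the strand setting of the counting is not given in the sources used here, so the part of Apobr reads in the Il27 count was not tested.

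Ebi3, the partner chain of interleukin 27, had the highest level per exon length of the chains, as given with the other levels per kb. The controls ran from 26.6 to 30.4 CPM with a median of 28.3, and the compressed libraries from 51.4 to 71.0 with a median of 56.9. The groups were again separate, with replicate 6 the highest compressed library at 71.0 and the other 5 between 51.4 and 64.3. The level rose by a log2 fold change of 1.05 (SE 0.08, adjusted p = 1.69e-07 by edgeR), or 2.07-fold (95% interval 1.84 to 2.34), and by 0.99 without replicate 6 (adjusted p = 4.19e-12). Gm16712, an antisense gene on the opposite strand, shares 270 of the 1154 exon bases of Ebi3. It rose from 2.34 ± 0.262 to 5.58 ± 0.585 CPM (SD, n = 6) and was called higher (adjusted p = 1.70e-07 by edgeR). Whether reads of one were counted for the other was not tested.

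The chains that complete interleukins 12, 23 and 35 were barely counted or not at all. Il12a, the p35 chain, had 0 reads in all 12 libraries, and a count of 0 allows up to 0.00667 CPM over the 12 libraries. Il12b, the p40 chain, had 1 read in control replicate 3 and 0 in the other controls, and 1 to 3 reads in each compressed library. All 6 compressed libraries thus held a read and 1 of 6 controls did. Over the groups this was 1 read against 11, a ratio per library size of 12.5 with a 95% counting interval of 1.81 to 536. With no filter on low counts, edgeR gave Il12b a log2 fold change of 2.88 with an adjusted p of 0.00948, and DESeq2 left it without an adjusted p. Intervals and limits from read numbers cover counting error only, since no molecular identifiers are named in the sources used here and several reads may stem from 1 molecule.

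**Figure D2:**
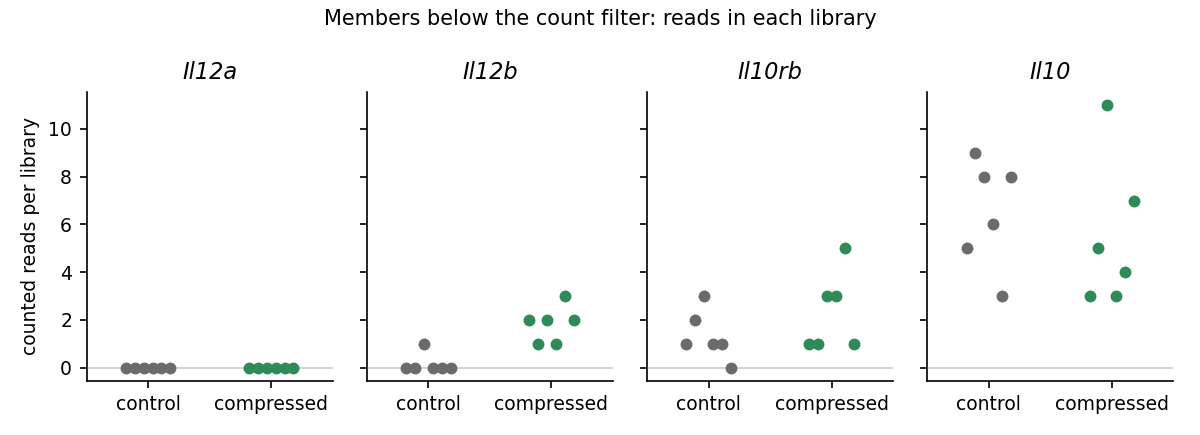
Reads in each of 6 control (grey) and 6 compressed (green) libraries for the 4 genes below the filter on low counts. Il12a is at 0 throughout, Il12b has 1 read in the controls and 1 to 3 in each compressed library, and Il10rb and Il10 overlap between the groups.

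Levels of different genes were compared as CPM per kb of exon, with exon length from the GENCODE M21 annotation. Ebi3 led with 24.6 ± 1.60 CPM per kb in the controls and 51.1 ± 6.54 in the compressed group (SD, n = 6). Il10ra came next at 6.56 ± 0.358 and 17.4 ± 1.27 CPM per kb. In the controls the next 4 genes could not be ordered, because Il27 (1.08 to 2.05 CPM per kb), Il15 (1.14 to 1.52), Il23a (1.23 to 1.86) and Il15ra (1.24 to 1.47) overlapped. In the compressed libraries they came apart. Il23a followed Il10ra at 9.58 ± 1.55 CPM per kb, with 7.33 in its lowest library and 11.3 in its highest. Il27 came after it at 5.14 ± 1.18 CPM per kb and touched that range only through replicate 6, at 7.38. Il15 stood at 2.93 ± 0.260 and Il15ra at 1.43 ± 0.0676 CPM per kb, both apart from their neighbours. Il10 had 0.125 ± 0.0433 CPM per kb in the controls and 0.117 ± 0.0596 in the compressed libraries. With the longest transcript as the length instead, Il15ra had 2.60 CPM per kb in the controls, above Il15 at 1.67 and Il23a at 1.82.

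**Figure D3:**
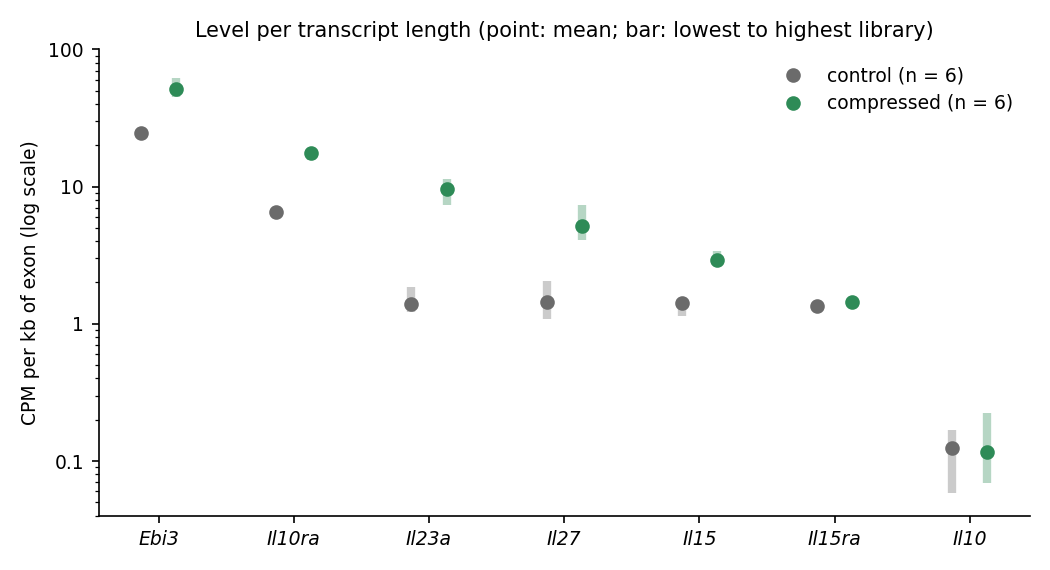
Level per kb of exon on a log axis for the 7 genes with at least 3 reads in every library, as the mean (point) and the lowest to highest library (bar) of 6 control and 6 compressed libraries. Il23a, Il27, Il15 and Il15ra overlap in the controls, and in the compressed group Il23a lies above Il15 and Il15ra.

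The make-up of the helical chains can be given per library. Of the summed level per kb of Il23a, Il12a and Il27, Il23a made up 49.5 ± 6.14% in the controls (39.97 to 58.3%) and 65.2 ± 2.88% in the compressed libraries (60.6 to 68.4%; SD, n = 6). The share was higher in every compressed library than in any control. With the longest transcript as the length it was 56.1 ± 6.07% and 70.9 ± 2.62%, also without overlap. Since Il12a was at 0, the rest was Il27, for which the part of Apobr reads was not tested. The partner Ebi3 outweighed its chain Il27 by 17.9 ± 3.75 to 1 per kb in the controls (11.3 to 21.4) and by 10.1 ± 0.997 to 1 under compression (8.33 to 10.8), again without overlap. Among the partner chains Ebi3 took at least 99.9% of the summed level per kb of Ebi3 and Il12b in every library. These ratios are descriptions of the same counts and were not tested apart.

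Interleukin 15 RNA rose, and that of its presenting receptor did not pass the test. Il15 lay between 2.58 and 3.44 CPM in the controls, with a median of 3.33, and between 6.07 and 7.62 under compression, with a median of 6.44. The groups were separate, with replicate 6 the lowest control and also the highest compressed library. The log2 fold change was 1.06 (SE 0.09, adjusted p = 3.46e-07 by edgeR), or 2.08-fold (95% interval 1.82 to 2.37), and 1.01 without compressed replicate 6 (adjusted p = 9.21e-10).

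Il15ra ran from 5.50 to 6.54 CPM in the controls, with a median of 6.12, and from 6.00 to 6.72 in the compressed libraries, with a median of 6.37. The groups overlapped over most of their ranges. The log2 fold change was 0.08 (SE 0.06, adjusted p = 0.292 by edgeR) with a fold of 1.06 and a 95% interval of 0.966 to 1.16. Without compressed replicate 6 it was also 0.08 (adjusted p = 0.305 by edgeR). A p above the threshold does not show that the level was the same. The level of Il15 per kb over that of Il15ra was 1.05 ± 0.156 in the controls (0.816 to 1.22) and 2.05 ± 0.165 in the compressed libraries (1.78 to 2.29; SD, n = 6). With the longest transcript as the length it was 0.648 ± 0.0963 and 1.26 ± 0.102, so which of the 2 genes was higher in the controls depends on the length used.

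Il10ra, the ligand-binding interleukin 10 receptor chain, had 21.9 CPM in the lowest control, a median of 22.4 and 24.8 in the highest. The compressed libraries ran from 55.0 to 66.6 CPM with a median of 60.9. The lowest compressed library was replicate 6, and it was still well above the highest control. The means of 22.95 ± 1.25 and 60.9 ± 4.46 CPM (SD, n = 6) came from 5486 and 12797 reads. The log2 fold change of 1.41 (SE 0.06, adjusted p = 7.27e-10 by edgeR) is 2.65-fold, with a 95% interval of 2.43 to 2.89, and it was 1.43 without replicate 6 (adjusted p = 1.13e-15).

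The other 2 genes of that system were near the limit of counting. Il10 had 3 to 9 reads per control library and 3 to 11 per compressed library, 39 and 33 in all. The ranges overlapped and the ratio was 0.958 with a 95% counting interval of 0.584 to 1.56. Il10rb had 0 to 3 reads per control and 1 to 5 per compressed library, 8 and 14 in all, a ratio of 1.98 with an interval of 0.776 to 5.45. Neither passed edgeR's test with no filter on low counts (adjusted p = 0.918 for Il10 and 0.339 for Il10rb). The annotated exons of Il10rb share 569 of 3808 bases with Gm21970, a gene model on the same strand that had 0 counts in all libraries. How the counting treated reads in both is not given in the sources used here, so the level of Il10rb is uncertain.

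The genes that act with these cytokines were read from 5 lists. Nfil3 was on both the list of transcription factors and that of genes that respond to interleukin 10. It is counted once in the totals and again in each of those lists. The lists held 62 genes in all, of which 45 were tested. By edgeR's adjusted p, 27 were higher, 2 lower and 16 were not called, beside 24.5% higher and 21.9% lower among all tested genes, and the 45 log2 fold changes had a median of 0.31. Without compressed replicate 6, 33 were higher and 6 lower, and in that fit 33.8% of all tested genes were higher and 32.2% lower. Among 8 receptors of the interleukin 12 family and of interleukin 15, 3 passed the filter and 1 rose. That was Il2rg, the common gamma chain that interleukin 15 also uses, from 73.5 ± 3.10 to 98.3 ± 7.68 CPM (SD, n = 6; log2 fold change 0.42, SE 0.056, adjusted p = 3.11e-05 by edgeR). Il12rb1, a chain of the interleukin 12 and 23 receptors, had a log2 fold change of 0.07 (adjusted p = 0.438 by edgeR) and was not called with or without replicate 6. Il6st, a chain of the interleukin 27 receptor, had one of 0.12 (adjusted p = 0.579), with 40.6 CPM in replicate 6, 81.5 to 94.5 in the other compressed libraries and 71.5 to 79.3 in the controls. Without replicate 6 it was called higher, at 0.25 (adjusted p = 1.32e-05 by edgeR), so 2 of the 3 receptors were. Il23r had 1 read in the controls and 2 in the compressed group, and Il12rb2 had 9 and 16. Of 9 other ligands and receptors of the interleukin 10 family, 4 were at 0 in all libraries and only Il20rb passed the filter. It was higher, at 5.70 ± 0.311 and 11.1 ± 1.56 CPM.

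Of 11 Janus kinases and STAT factors, which carry the signals of these receptors, 10 were tested, 3 were higher and none was lower. The 3 were kinases. Jak2 had a log2 fold change of 0.93 (SE 0.10, adjusted p = 5.44e-06 by edgeR), Jak3 of 0.61 (SE 0.11, adjusted p = 4.18e-04) and Tyk2 of 0.44 (SE 0.13, adjusted p = 0.0132). Compressed replicate 6 was low in all 3, and for Tyk2 its 69.4 CPM lay below the controls (81.4 to 95.4) while compressed replicates 1 to 5 held 117 to 137. Without it Tyk2 had a log2 fold change of 0.55 (adjusted p = 1.55e-09), and 7 of the 10 were higher. Stat4, which relays interleukin 12 in T cells, was at 0 in all libraries.

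Of 20 transcription factors with a known part in the control of these cytokine genes, 18 were tested, 12 were higher and 1 was lower. Their median log2 fold change was 0.29. The largest change was in Atf3, a stress-induced repressor of inflammatory genes (log2 fold change 1.36, SE 0.063, adjusted p = 1.87e-09 by edgeR). Cebpb, a factor of inflammatory and acute-phase genes, had a log2 fold change of 1.00 (SE 0.20, adjusted p = 0.00106), and replicate 6 held 138 CPM against 54.1 to 73.3 in the other compressed libraries. Without it the value was 0.73 (adjusted p = 4.37e-08). Bhlhe40, a repressor of Il10 in T cells, and Nfil3, a leucine zipper factor, rose by log2 fold changes of 0.92 (SE 0.056) and 0.81 (SE 0.039). Irf1, an interferon-induced factor, was the one called lower (log2 fold change -0.20, SE 0.058, adjusted p = 0.0133 by edgeR). Without replicate 6, 12 were higher and 3 lower, with Irf3 and Spi1 added to Irf1.

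A list of 15 genes known to respond to interleukin 10 in macrophages had 14 tested, 11 higher and 1 lower. Their median log2 fold change was 0.80. Socs3, a feedback inhibitor of cytokine receptors, rose from 55.7 ± 7.74 to 189 ± 15.3 CPM (SD, n = 6; log2 fold change 1.76, SE 0.090, adjusted p = 4.37e-09 by edgeR). Il4ra, a chain of the interleukin 4 receptor, rose by a log2 fold change of 1.62 (SE 0.15), Hmox1, which degrades heme, by 1.58 (SE 0.053) and Il1rn, the interleukin 1 receptor antagonist, by 1.48 (SE 0.060). Fcgr1, a high-affinity IgG receptor, was lower (log2 fold change -0.39, SE 0.058, adjusted p = 7.95e-05 by edgeR). Il10 itself had 39 reads in the controls and 33 in the compressed group. These genes answer to other stimuli as well, and whether interleukin 10 had a part in their changes was not tested. Without replicate 6, 12 were higher and 2 lower, Bcl6 being the second.

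**Figure D4:**
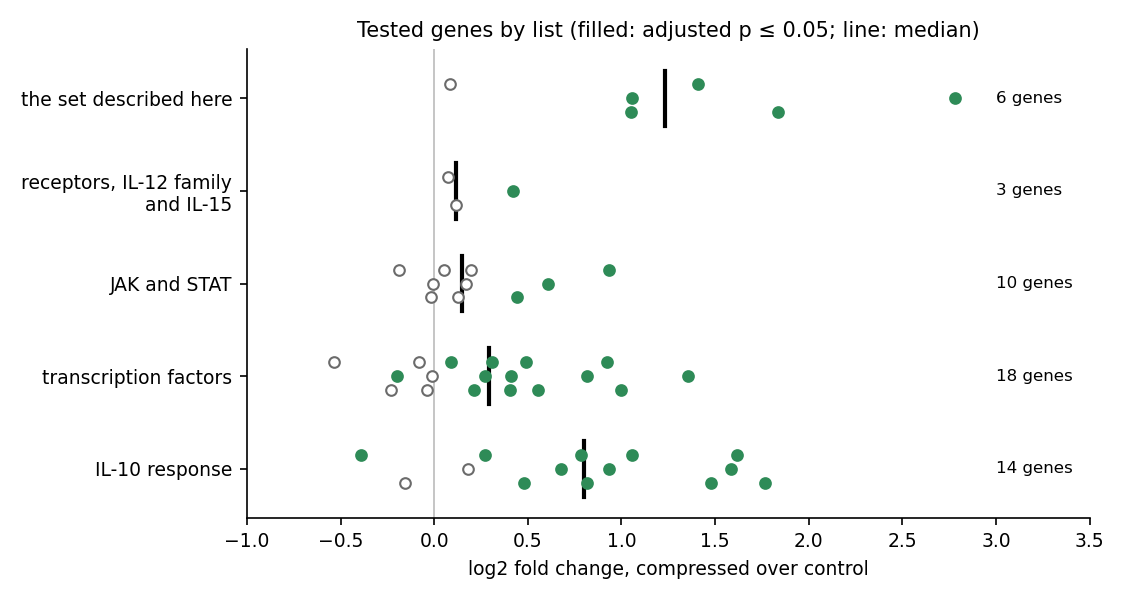
Log2 fold change, compressed over control, of the tested genes of the set and of 4 lists with at least 3 tested genes, filled where the adjusted p was 0.05 or less, with the median as a line. The medians are 1.23 for the 6 genes of the set, 0.12, 0.15 and 0.29 for receptors, Janus kinases with STAT factors, and transcription factors, and 0.80 for genes that respond to interleukin 10.

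The genes whose pattern over the 12 libraries was most like that of Il23a were Acod1, F3 and Mgarp. Likeness was the root mean square difference in log2 CPM, each gene set to its control mean, over 10732 named genes with at least 1 CPM in the higher group. The difference was 0.179 log2 units for Acod1, which makes itaconate in activated macrophages and rose from 236 ± 36.9 to 1609 ± 160 CPM (SD, n = 6). It was 0.222 for F3, the gene of tissue factor, at 1.59 ± 0.213 and 11.0 ± 0.711 CPM, and 0.235 for Mgarp, which encodes a mitochondrial protein, at 2.86 ± 0.344 and 19.6 ± 5.37 CPM. Their log2 fold changes were 2.77, 2.79 and 2.78. The group difference dominates this measure, so a like size was fixed by the choice. Within the compressed group Acod1 was lowest in replicate 6, at 1409 CPM against 1510 to 1861, where Il23a was highest. Mgarp had 30.4 CPM there against 16.5 to 19.3 in the others. Without replicate 6 the log2 fold changes were 2.80 for Acod1, 2.77 for F3 and 2.61 for Mgarp.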

How the data were processed

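RNA was sequenced from 6 compressed and 6 control samples of RAW264.7 cells. Directional libraries enriched for mRNA are described in the labels. Alignment by the authors used STAR 2.7.2, and GRCm39 is the build in the submitters' processing notes. The deposited values are whole-number counts per Ensembl gene with no normalization. How reads were counted, with which strand setting and annotation release, is not given in the sources used here. Names and exon lengths came from GENCODE M21 (GRCm38), matched by ID for 51948 of 56941 IDs, which hold 99.5% of the counts. Start-site windows came from RefSeq on GRCm38.p6.

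The analysis ran in edgeR 4.0.16 with limma 3.58.1 under R 4.3.3. Genes were kept by filterByExpr (groups of 6, minimum count 10), scaled by TMM and tested with the quasi-likelihood F test on condition. A gene was called at an adjusted p of 0.05 or less (Benjamini-Hochberg, 15001 genes). The SE of a log2 fold change is that change over the square root of F. Ratios of low counts carry exact conditional 95% counting intervals, and a count of 0 was read as a limit of 3 counts. Counting error was below the spread between libraries. The mean chi-square per gene, near 1 for counting error alone, was 2.09 to 7.52 for control pairs, 3.30 to 15.3 for compressed pairs without replicate 6 and 152 to 201 with it. In counts simulated for 6 against 6 libraries, 14862 genes were tested, and edgeR recovered 10, 33, 47 and 50 of 50 genes changed 1.25-, 1.5-, 2- and 4-fold. Of 144 calls, 4 were of unchanged genes. The simulation changed only 50 genes at each fold, where 6960 were called in these data. It held no library set apart like compressed replicate 6, so its rates may not hold here.

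The genes and lists were chosen with earlier results of these data known. Named were all 10 genes of the set, up to 4 called genes of each list with the largest change and at least 1 CPM in the higher group, list genes called against the majority, and the 3 genes most like the one with the largest change. Other genes were named after their values were seen where a count was small. Some genes the rule takes, and some results for single list genes, are not reported here. Alternatives were DESeq2 1.42.0, no low-count filter, a mean scaled count of at least 50, library size alone, an adjusted p of 0.01, replicate number as a block, the longest transcript as length and leaving out each library in turn.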

Additional observations from a re-analysis of the deposited data

Results flagged for a closer look

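In 2 of the 12 groups of 6 libraries (6 genes in 2 conditions), 1 library lay apart from the other 5 by more than Dixon's 95% limit of 0.625, the gap to the nearest library as a share of the group's range. Chance alone puts about 1 in 20 groups past it. Il23a in control replicate 1 had 4.17 CPM, above the other controls at 2.76 to 3.09, with a share of 0.762. Without that library the log2 fold change of Il23a was 2.88 (adjusted p = 5.09e-09 by edgeR), against 2.78 with it. Il27 in compressed replicate 6 had 7.54 CPM, above the other compressed libraries at 4.19 to 5.33, with a share of 0.661. Without it the log2 fold change of Il27 was 1.70 (adjusted p = 3.41e-10 by edgeR), against 1.84.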

How the results depend on the processing

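Of 234 values recomputed under an alternative, 9 moved past a limit set by the kind of value: for a count of genes 1.5 times, for a level per kb 1 SD of its libraries, for a ratio of low counts its 95% counting interval. No log2 fold change changed its direction or its side of the threshold. The number of genes of the set called higher was 5 throughout except with no low-count filter, where Il12b made it 6, and 0 were lower throughout. Leaving out each library in turn gave log2 fold changes of 2.72 to 2.88 for Il23a, 0.99 to 1.09 for Ebi3, 1.70 to 1.97 for Il27, 1.00 to 1.08 for Il15, 0.06 to 0.11 for Il15ra and 1.38 to 1.43 for Il10ra. Of the pathway genes, 2 were called lower, but 4 with library size alone, 1 at an adjusted p of 0.01 and 2 to 6 when each library was left out, with 6 without compressed replicate 6. The cause was not tested. With the longest transcript as length, levels per kb in controls and compressed libraries were 1.82 and 12.5 for Il23a, 1.67 and 3.48 for Il15, and 2.60 and 2.75 for Il15ra, since that length is shorter than the union of exons.

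Replicate numbers were not taken as pairs, since the correlation of same-numbered libraries about their group means was -0.115 to 0.0400 and 0 of 6 controls lay closest to their own number. With replicate number as a block, 5 genes of the set were higher and 0 lower, Il23a had a log2 fold change of 2.77 (adjusted p = 2.74e-06 by edgeR), and 6393 genes were called in place of 6960. Leaving out compressed replicate 6 gave 9981 calls and DESeq2 7397.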
